A study of Mus musculus with 9 samples.

Results

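Confluent mouse PT-22 cells that had received 4-hydroxytamoxifen and then doxycycline were compared at day 12 with untreated cells at day 0, over all genes, to ask what still differed once the rescue step was complete. The comparison used 6 of the 9 libraries of the series, chosen by their labels: replicates A, B and C of day 12 and replicates A, B and C of day 0. PT-22 is a kidney line labelled as proximal tubule, and every group carried the same genotype, Pax2-/-, Pax8fl/fl, Rosa-CreERT2, together with the line's Pax8-pTRIPZ construct. Rosa-CreERT2 places a recombinase that 4-hydroxytamoxifen activates under a broadly active locus, so that treatment removes the floxed Pax8 segment. pTRIPZ is a lentiviral vector that doxycycline switches on, here to return Pax8. The day 12 cells had been given 1 uM 4-hydroxytamoxifen, for which the labels name both 2 days and a 6 day depletion, and then 1 ug/ml doxycycline every 2 days for a further 6 days. The 3 day 6 libraries, taken after 4-hydroxytamoxifen and before doxycycline, are given only as values beside the comparison. No vehicle control, untreated day 12 culture or doxycycline-free day 12 culture was analysed here, so time at confluence, both drugs and Pax8 cannot be told apart. All libraries come from 1 modified line, and the labels do not say whether replicates were separate cultures, and p-values therefore reflect only how far these libraries spread, a spread that may be technical.

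PAX8 and its close relative PAX2 are paired-domain transcription factors that set up the nephric lineage and stay on in parts of the adult tubule epithelium. Proximal tubule cells reclaim filtered protein through the receptors megalin and cubilin, take up amino acids, sugars and phosphate across a brush border, and depend on mitochondria for the energy this needs. After injury, surviving tubule cells can lose transport genes and express inflammatory, matrix and developmental genes while they repair.

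The day 0 and day 12 libraries held between 56398623 and 86767334 counts and 21213 to 22139 detected genes. Log expression correlated across genes at r of 0.9927 to 0.9938 within day 0 or within day 12, and at 0.9617 to 0.9654 between them. This describes libraries, since genes are not replicates. The label of proximal tubule was checked against markers. Lrp2 (megalin), Aqp1 and Cubn were detected at both days, as was the kidney cadherin Cdh16. Slc34a1 and Slc22a6, which define the mature phosphate and organic anion transporters of this segment, had 0 counts in every library. Slc5a2 had 2 counts at day 0 and 0 at day 12, and Hnf4a had 3 and 1, each summed over 3 libraries. Krt18, a keratin of simple epithelium, had 4 and 12 counts, and Cdh1 (E-cadherin) stood below 1 CPM (counts scaled to library size, with TMM factors) in all 6 libraries. The cells are therefore called PT-22 cells below.

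Pax8 (chr2:24420560-24475599, GRCm38, minus strand) was higher at day 12 than at day 0. It had 292, 289 and 292 CPM at day 0 and 496, 503 and 487 at day 12. The groups did not overlap, and the log2 fold change was 0.77 ± 0.029 (SE), adjusted p = 1.12e-15, with 405 CPM at day 6. The library label of depletion at day 6 was therefore not matched by a lower gene-level count. A count over the whole gene adds up the intact, the recombined and the vector-borne transcript, so it checks neither the deletion nor the rescue. Pax2 (chr19:44756045-44837871, plus strand), labelled as deleted, had 30.4, 30.7 and 34.6 CPM at day 0 and 54.5, 53.7 and 48.6 at day 12 (log2 fold change 0.71 ± 0.063 (SE), adjusted p = 3.44e-07). Its reads can likewise come from parts of the gene outside the deleted segment, and PAX8 protein was not measured.

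Much of the transcriptome still differed at day 12. Of 16353 genes tested, 5662 were higher (34.6%) and 5181 lower (31.7%), together 66.3%, at an adjusted p under 0.05 (edgeR quasi-likelihood test, Benjamini-Hochberg adjustment over all genes tested). Most of these differences were small, with a median of 1.34-fold among the called genes. By at least 2-fold, 1539 genes were higher (9.41%) and 688 lower (4.21%). For 5029 genes (30.8%) the 95% interval of the log2 fold change lay wholly between −0.32 and 0.32, and such genes are said below to be close to day 0. Day 0 and day 12 libraries did not overlap for 69.7% of the genes tested, so lack of overlap is the common state in this comparison. The median log2 fold change over all genes was 0.025, with quartiles of −0.26 and 0.40. On log2(TPM + 1) it was 0.19, and 81.4% of calls were higher there, against 52.2% with the counts. That TPM scale moves with the mitochondrial transcripts, which made up 20.8% of TPM at day 0 and 12.8% at day 12. With TPM rescaled over the other genes the median was 0.091 and 66.5% of calls were higher, and with TPM centred on the median gene the values were −0.070 and 40.3%. Of 94 counts of list members called higher or lower, 44 moved by more than 1.5 times on log2(TPM + 1), so both sets of counts are given below where they differ by that much for a whole list. The low-count filter keeps a gene that reaches its level in 1 group alone, so that a gene below that level at day 0 had to be higher in a later group to be tested. Genes short of that level in at least 1 day 0 library made up 6 of 15 tested chemokines and 8 of 54 matrix genes. They were also 3 of 14 interleukins and related factors and 6 of 26 proteases and inhibitors. They were 3 of 42 Wnt, 3 of 34 BMP and 2 of 19 nephron transcription factor genes. Among contractile and mesenchymal genes they were 2 of 24, and among markers 3 of 10 for stroma and 1 of 6 for endothelium. In bulk RNA, fewer cells of a type and less RNA per cell cannot be told apart.

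**Figure D1:**
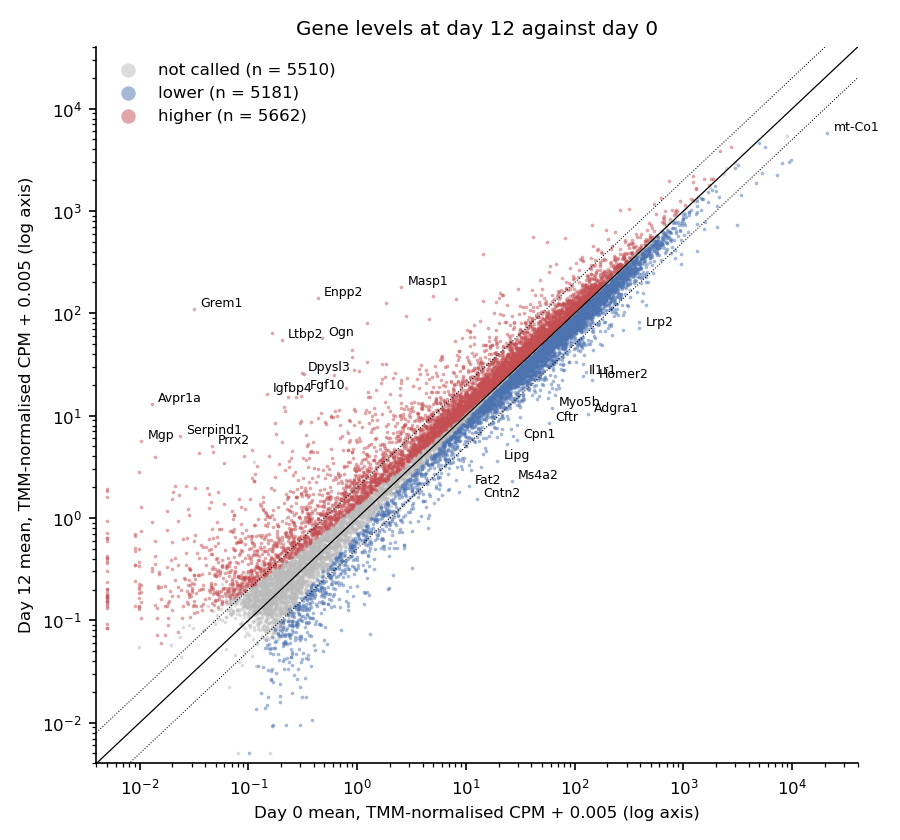
Mean level of each tested gene at day 0 (x axis) and day 12 (y axis), in TMM-normalised CPM plus 0.005 on log axes, with equality as a solid line and 2-fold differences as dotted lines. The 5662 genes called higher are red, the 5181 called lower are blue, and the named genes of largest change lie far above the line, as Grem1 and Enpp2 do, or below it, as Lrp2 and Adgra1 do.

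The largest changes were taken among called genes with a mean of at least 5 CPM in the higher group and no overlap of libraries. Genes whose symbol is a gene model or clone name were left out. The 12 largest rises so chosen included several secreted proteins. Grem1 (chr2:113746164-113758646), which encodes the BMP antagonist gremlin, had 0.0358, 0 and 0.0433 CPM at day 0 and 114, 112 and 103 at day 12. Its day 6 mean was 122 CPM, so the level at day 12 was close to the level before doxycycline. Enpp2 (chr15:54838901-54952892) encodes autotaxin, the enzyme that makes lysophosphatidic acid, and had 0.514, 0.415 and 0.361 CPM at day 0 and 141, 140.3 and 141 at day 12 (log2 fold change 8.33 ± 0.08 (SE), adjusted p = 9.69e-23). Ltbp2, a latent TGF-beta binding protein, had 0.155, 0.1598 and 0.274 CPM at day 0 and 57.8, 56.5 and 50.3 at day 12. Ogn, a small leucine-rich proteoglycan, had 0.394, 0.463 and 0.562 CPM at day 0 and 56.3, 60.4 and 56.98 at day 12 and was higher still than its day 6 mean of 25.2 CPM. Masp1 (chr16:23449417-23520815), a protease of the lectin complement pathway, had 2.39, 2.67 and 2.55 CPM at day 0 and 177, 186 and 174 at day 12 (log2 fold change 6.14 ± 0.053 (SE), adjusted p = 6.07e-26). The rule that chose these genes required day 0 and day 12 libraries not to overlap, so the gap between them is no separate result.

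Fgf10, a mesenchymal growth factor, rose from a mean of 0.318 ± 0.11 to 25.3 ± 0.28 CPM. Dpysl3, a cytoskeletal regulator, rose from 0.304 ± 0.08 to 26.1 ± 0.78 CPM, and Igfbp4, which binds insulin-like growth factors, from 0.142 ± 0.034 to 16.3 ± 0.88 CPM. Prrx2, a homeobox gene of mesenchyme, rose from 0.041 ± 0.0082 to 5.07 ± 0.53 CPM, and Serpind1 (heparin cofactor II) from 0.0186 ± 0.017 to 6.36 ± 0.45 CPM. The vasopressin receptor gene Avpr1a went from 2 counts over the day 0 libraries to 2740 over those of day 12, a ratio of 1390 (95% interval 385 to 11500). Mgp, an inhibitor of calcification, went from 1 to 1188 (1210, interval 216 to 47700). These intervals cover counting error only, and fitted folds of genes near 0 at day 0 depend on the prior count.

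Under the same rule, the largest falls included several membrane proteins. Lrp2 (chr2:69424340-69586065, minus strand) had 343, 399.5 and 430.4 CPM at day 0 and 82, 57.3 and 75.97 at day 12 (log2 fold change −2.45 ± 0.19 (SE), adjusted p = 2.92e-05). The 3 day 12 values lay near the day 6 mean of 58.7 CPM. Adgra1, an adhesion G protein-coupled receptor, had 137, 126 and 136 CPM at day 0 and 10.5, 10.2 and 10.1 at day 12 (log2 fold change −3.69 ± 0.056 (SE), adjusted p = 3.14e-20), with 0.886 CPM at day 6. Cftr, the chloride channel, had 58.6, 59.8 and 57.2 CPM at day 0 and 8.12, 8.75 and 8.59 at day 12 (log2 fold change −2.79 ± 0.049 (SE), adjusted p = 4.03e-21), and Myo5b, a motor of apical recycling endosomes, had 59.4, 60.1 and 67.8 CPM at day 0 and 12.2, 11.1 and 12.4 at day 12. Homer2, a scaffold protein, fell from a mean of 145 ± 0.94 to 22.4 ± 0.64 CPM, and Il1r1, the interleukin 1 receptor, from 119 ± 4.8 to 24.3 ± 1.3 CPM. Ms4a2, an Fc receptor chain, fell from 26.5 ± 1.3 to 2.31 ± 0.31 CPM, Cntn2, a neural adhesion molecule, from 12.6 ± 0.73 to 1.52 ± 0.14 CPM, and Cpn1, a carboxypeptidase, from 29.3 ± 0.4 to 5.72 ± 0.49 CPM. Lipg, a lipase, fell from 19.3 ± 0.86 to 3.63 ± 0.12 CPM, and the protocadherin Fat2 from 10.6 ± 1.3 to 2.04 ± 0.28 CPM. Day 6 means of Adgra1, Ms4a2, Cftr and Cpn1 were 0.886 CPM, 0.0853 CPM, 2.11 CPM and 0.453 CPM, all below their day 12 values.

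Genes of the proximal tubule moved in both directions. In the endocytosis list 3 of 17 tested members were higher and 11 lower, with a median log2 fold change of −0.23 that turned to 0.040 on log2(TPM + 1), where 8 were higher and 2 lower. The falls were led by Lrp2 and by Clcn5, the endosomal chloride exchanger, which had 215, 217 and 215 CPM at day 0 and 117, 102 and 115 at day 12. Dab2, the adaptor of megalin, was higher, with 46.01, 46.9 and 50.6 CPM at day 0 and 82.3, 87.8 and 80.5 at day 12. Among transporters 21 of 43 listed members passed the filter on low counts, and 4 were higher and 10 lower, with a median of −0.11 that became 0.039 on log2(TPM + 1). Slc6a18, a neutral amino acid transporter, had 28.97, 25.6 and 32.9 CPM at day 0 and 7.66, 8.47 and 8.403 at day 12, and its relative Slc6a19 had 13.8, 13.9 and 13.2 CPM at day 0 and 3.46, 2.71 and 3.23 at day 12. Slc6a18 had nearly vanished at day 6, at 0.04102 CPM, and stood at day 12 between the earlier groups. Kcnj16, a basolateral potassium channel subunit, showed the same order, with 59.7, 56.2 and 58.6 CPM at day 0 and 16.5, 17.8 and 17.1 at day 12 and 0.376 CPM at day 6. The water channel gene Aqp1 was higher, with 123, 103 and 129 CPM at day 0 and 343, 309.9 and 332 at day 12, as was Slc4a4, the basolateral bicarbonate cotransporter, at 11.3 ± 0.65 to 21.4 ± 1.5 CPM. Slc17a1, an apical phosphate and organic anion transporter, rose from 2.92 ± 0.45 to 8.93 ± 1.2 CPM.

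Brush border and metabolic enzymes were mixed as well. Of 13 tested brush border genes, 5 were higher (38.5%, against 34.6% of all genes) and 4 lower (30.8%, against 31.7%). On log2(TPM + 1) 8 were higher and 3 lower, and the list median of 0.067 with counts was −0.045 on TPM centred on the median gene. Alpl, alkaline phosphatase, rose from 3.18 ± 0.32 to 12.3 ± 0.43 CPM, and Anpep, aminopeptidase N, from 9.99 ± 0.63 to 21.8 ± 1.5 CPM, while Npr3, the natriuretic peptide clearance receptor, fell from 190.2 ± 4.4 to 117 ± 6.3 CPM. Rnpep stayed close to day 0 (95% interval of the log2 fold change −0.077 to 0.10). Of 28 genes of proximal tubule metabolism only 13 passed the filter, and 6 were higher (46.2%, against 34.6% of all genes) and 5 lower (38.5%, against 31.7%). Gstt1, a glutathione transferase, and Sord, sorbitol dehydrogenase, rose from 13.1 ± 0.7 to 28.6 ± 0.52 CPM and from 66.4 ± 1.1 to 115 ± 1.2 CPM. Cyp4b1, a cytochrome P450, and Gatm, which makes the creatine precursor, fell from 12.5 ± 0.33 to 6.19 ± 0.65 CPM and from 46.4 ± 1.7 to 34.9 ± 1.5 CPM.

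Transcription factors of the nephron were mostly higher at day 12. Of 19 tested, 15 were higher, 10 of them by at least 2-fold, and 3 were lower, with a median log2 fold change of 1.05 against 0.025 over all genes. Lhx1, which acts early in nephron formation, had 2.27, 2.09 and 2.005 CPM at day 0 and 22.6, 25.8 and 22.1 at day 12 (log2 fold change 3.46 ± 0.087 (SE), adjusted p = 1.26e-18), against 3.76 CPM at day 6. Mecom, a regulator of distal nephron fate, had 2.27, 2.57 and 2.57 CPM at day 0 and 19.3, 17.9 and 19.1 at day 12, with 19.5 CPM at day 6. Sox9, a factor of tubule progenitors and repair, had 10.99, 9.67 and 10.7 CPM at day 0 and 36.9, 35.3 and 31.8 at day 12. Irx3, a gene of nephron segment patterning, fell, with 91.4, 82.01 and 92.8 CPM at day 0 and 34.9, 34.5 and 31.9 at day 12. Of 16 genes listed as PAX-regulated candidates, 11 were tested, 5 were higher (45.5%, against 34.6% of all genes) and 4 lower (36.4%, against 31.7%). Cdh16 had 833, 814 and 845 CPM at day 0 and 349.6, 345 and 352 at day 12 and Cdh6, a cadherin of the early tubule, 918, 970.3 and 953 CPM at day 0 and 311, 294 and 313 at day 12. Npnt, a matrix ligand of the ureteric bud, fell from 465 ± 3.6 to 251 ± 9.9 CPM, and Wnt4 rose from 36.3 ± 1.5 to 59.9 ± 1.9 CPM.

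**Figure D2:**
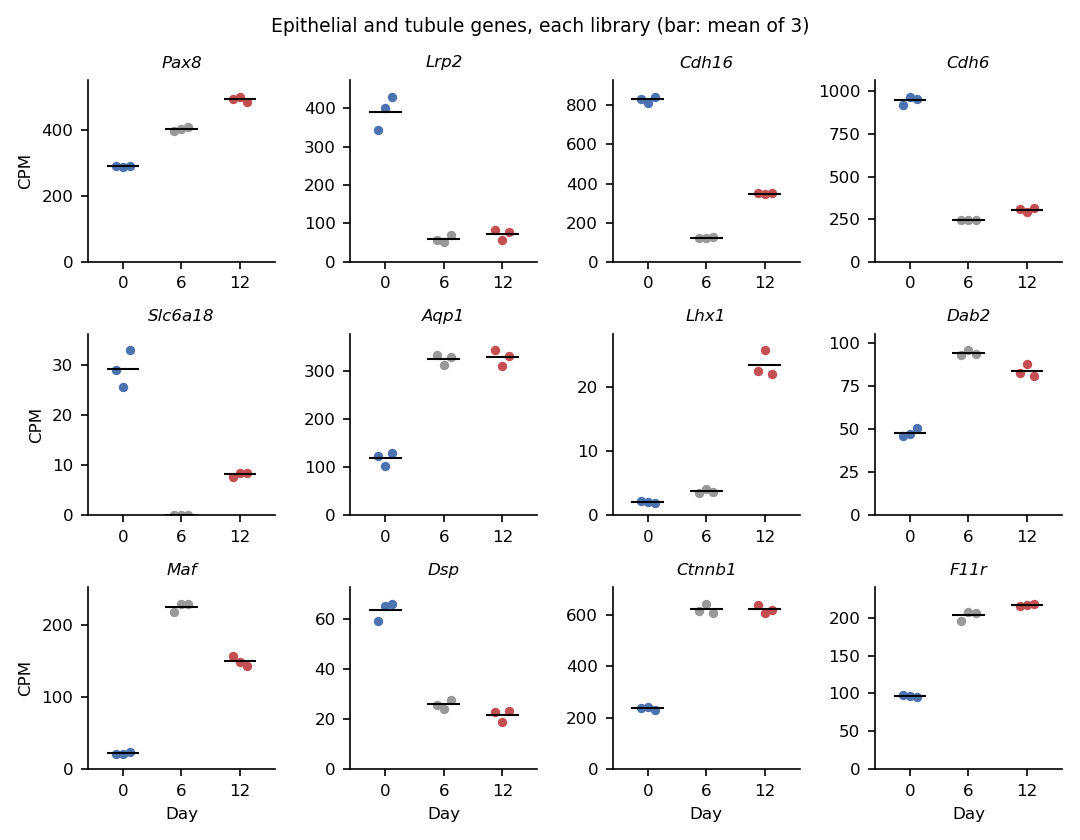
Level of 12 epithelial and tubule genes in each library, in TMM-normalised CPM from 0 (y axis), at day 0, 6 and 12 (x axis, blue, grey and red), with 1 point per library and a bar at the mean of 3. Lhx1 was low at day 0 and day 6 and high at day 12, Aqp1, Ctnnb1 and F11r stood at similar levels at day 6 and day 12, and Cdh16 and Slc6a18 lay between day 6 and day 0.

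Adhesion genes were divided. Over 40 tested junction and polarity genes, 18 were higher and 18 lower (18 and 11 on log2(TPM + 1)), and the median of −0.057 was 0.12 on that scale. Desmosome and polarity genes were lower in 10 of 15 and higher in 4. Dsp, the desmosomal plakin, had 59.3, 65.1 and 66.2 CPM at day 0 and 22.9, 18.9 and 23.2 at day 12 (log2 fold change −1.55 ± 0.079 (SE), adjusted p = 2.36e-08), and Dsg2, a desmosomal cadherin, fell from 29.3 ± 1.4 to 12.7 ± 0.38 CPM. Tight junction genes were higher in 9 of 14 and lower in 3. F11r, which encodes the junctional adhesion molecule JAM-A, had 98.2, 96.2 and 95.4 CPM at day 0 and 215, 217 and 218 at day 12, and Cgn (cingulin) rose from 53.7 ± 2 to 87.5 ± 2.8 CPM, while Cldn12 fell from 109 ± 1.2 to 72.9 ± 1.9 CPM. Cldn2, a pore-forming claudin of proximal tubule, rose from a low 1.22 ± 0.072 to 2.96 ± 0.53 CPM. Tjp1 (ZO-1) stayed close to day 0 (95% interval of the log2 fold change −0.11 to 0.037). The difference between junction types was not tested. Among cadherins and catenins, Cdh2 (N-cadherin) had 319.8, 314 and 327 CPM at day 0 and 149, 139 and 142 at day 12, and Ctnnb1 (beta-catenin) had 239, 242 and 229.6 CPM at day 0 and 639.9, 609 and 620.1 at day 12 (log2 fold change 1.40 ± 0.033 (SE), adjusted p = 5.08e-19). Ctnnb1 shares exon bases with other annotated genes, so part of its count may belong to them. Of 10 tested intermediate filament genes, 2 were higher and 6 lower (3 and 3 on log2(TPM + 1)), with Krt80 falling from 65 ± 2.3 to 33.3 ± 2 CPM.

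Wnt pathway genes were higher at day 12 in 27 of 42 tested and lower in 8 (30 and 2 on log2(TPM + 1)). Wnt ligands act through Frizzled receptors and LRP co-receptors to stabilise beta-catenin, and several targets feed back to damp the signal. Among 11 ligands 9 were higher: Wnt10a had 11.02, 10.7 and 10.7 CPM at day 0 and 65.2, 64.5 and 65.2 at day 12 (log2 fold change 2.59 ± 0.041 (SE), adjusted p = 7.03e-22), and Wnt6 rose from 0.293 ± 0.12 to 8.44 ± 0.52 CPM, whereas Wnt7b fell from 21.2 ± 0.14 to 9.45 ± 0.42 CPM. Receptors were divided, with 6 of 15 higher (40%, against 34.6% of all genes) and 4 lower (26.7%, against 31.7%). Their median of 0.026 was −0.014 on centred TPM. Fzd7 rose from 38.9 ± 0.96 to 108 ± 4.7 CPM and Fzd2 from 11.8 ± 0.33 to 29.3 ± 0.85 CPM, and Lrp5 fell from 191 ± 4.2 to 149 ± 0.99 CPM, a call that was lost on log2(TPM + 1). Inhibitors were higher in 7 of 8. Rnf43, a ligase that removes Frizzled receptors, had 1.22, 1.23 and 1.43 CPM at day 0 and 11.5, 11.7 and 9.08 at day 12, and Apcdd1, a membrane inhibitor, rose from 9.41 ± 0.26 to 29.3 ± 0.48 CPM, while Znrf3, the partner of Rnf43, fell from 32.8 ± 1.6 to 26.4 ± 0.89 CPM and was not called on log2(TPM + 1). Nkd1, another feedback inhibitor, had 0 counts at day 0 and 34 at day 12, at least 11.5-fold higher against a floor of 3 counts over the group. Of 8 targets 5 were higher and 1 lower. Axin2, a direct target, had 2.26, 2.29 and 2.13 CPM at day 0 and 8.904, 7.13 and 7.87 at day 12 and 12.3 CPM at day 6, and Lef1, a beta-catenin partner, had 0.705, 0.879 and 0.981 CPM at day 0 and 5.58, 6.42 and 5.502 at day 12 and 11.2 CPM at day 6. Both remained above every day 0 library and lay below their day 6 means.

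BMP pathway genes were higher in 23 of 34 and lower in 7 (24 and 4 on log2(TPM + 1)). BMPs signal through SMAD proteins to the ID genes, and gremlin, follistatin-like and twisted gastrulation proteins bind them outside the cell. Of 10 antagonists 8 were higher. Fstl1 had 40.9, 41.6 and 39.9 CPM at day 0 and 168, 177 and 163 at day 12 (log2 fold change 2.05 ± 0.037 (SE), adjusted p = 6.26e-21) beside Grem1. Fst (follistatin) and Twsg1 were lower, from 15.3 ± 1.3 to 4.54 ± 0.29 CPM and from 826 ± 4.8 to 522 ± 16 CPM. Ligands were higher in 7 of 9, among them Bmp2, from 3.56 ± 0.24 to 10.6 ± 0.14 CPM, and Bmp7, a factor of nephron maintenance, from 80.8 ± 2.6 to 116 ± 2.8 CPM, while Bmp6 fell from 276 ± 4.5 to 186 ± 3.3 CPM. Of 8 receptors and signal carriers 3 were higher (37.5%, against 34.6% of all genes) and 3 lower (37.5%, against 31.7%). Their median of 0.033 was −0.089 on centred TPM. Acvr1 rose from 21.3 ± 0.43 to 37.4 ± 0.8 CPM and Bmpr2 fell from 192 ± 10 to 138 ± 15 CPM, with the call lost on log2(TPM + 1). Of 7 targets and inhibitors 5 were higher and 1 lower. Id1 had 24.1, 23.7 and 21.5 CPM at day 0 and 80.01, 87.6 and 79.9 at day 12 (log2 fold change 1.84 ± 0.047 (SE), adjusted p = 3.36e-17) and Smad6, an inhibitory SMAD, 5.84, 7.54 and 6.32 CPM at day 0 and 21.98, 21.3 and 21.3 at day 12.

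TGF-beta pathway genes were higher in 23 of 35 and lower in 6 (26 and 3 on log2(TPM + 1)). TGF-beta is stored in matrix by latent binding proteins and signals through the receptors TGFBR1 and TGFBR2. Among ligand and latency genes 10 of 14 were higher. Tgfb1 had 48.2, 44.9 and 48.8 CPM at day 0 and 68.8, 66.7 and 62.2 at day 12, and Inhbb, an activin subunit, had 10.6, 11.6 and 10.6 CPM at day 0 and 72.1, 67.4 and 62.9 at day 12 (log2 fold change 2.63 ± 0.051 (SE), adjusted p = 2.98e-20). Receptors and signal carriers were higher in 3 of 9 (33.3%, against 34.6% of all genes) and lower in 3 (33.3%, against 31.7%), near the shares of all genes. Their median of −0.056 was 0.18 on log2(TPM + 1). Tgfbr2 fell, with 509, 497 and 522 CPM at day 0 and 308, 283 and 298 at day 12, and the co-receptor Tgfbr3 fell from 51.3 ± 2.3 to 31.4 ± 1.1 CPM. Of 13 targets 11 were higher and 0 lower. Ccn2, also a target of YAP, had 94.6, 95.5 and 98.9 CPM at day 0 and 219, 246 and 235 at day 12 (log2 fold change 1.28 ± 0.046 (SE), adjusted p = 9.33e-13), and its day 6 mean was 133 CPM. Ccn1 had 208, 194 and 206 CPM at day 0 and 508, 552 and 521 at day 12, with a day 6 mean of 216 CPM, close to day 0. The YAP/TAZ list as a whole had 13 of 22 higher (59.1%, against 34.6% of all genes) and 8 lower (36.4%, against 31.7%). Nt5e, an ecto-nucleotidase, and Tead1, the DNA-binding partner of YAP, fell from 108 ± 2.8 to 44.1 ± 1.8 CPM and from 198 ± 11 to 108 ± 6.8 CPM.

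Matrix genes were higher in 35 of 54 (64.8%, against 34.6% of all genes) and lower in 16 (29.6%, against 31.7%). Postn (periostin), a matricellular protein, had 2.74, 2.65 and 2.96 CPM at day 0 and 96.4, 97.6 and 88.6 at day 12 (log2 fold change 5.08 ± 0.1 (SE), adjusted p = 2.56e-11). Fn1 (fibronectin) had 2601, 2764 and 2863 CPM at day 0 and 4763, 3819 and 4034 at day 12 (log2 fold change 0.62 ± 0.1 (SE), adjusted p = 0.00152), below the day 6 mean of 7696 CPM. Among 21 collagens 13 were higher (61.9%) and 7 lower (33.3%, near the 31.7% of all genes). Col8a1 and Col4a1 rose from 6.05 ± 0.26 to 38.4 ± 2.1 CPM and from 5.25 ± 0.79 to 26 ± 1.2 CPM, and Col8a2 from 0.669 ± 0.058 to 11.5 ± 0.2 CPM. Col4a3 and Col4a4, chains of the collagen IV network of mature kidney basement membrane, fell, from 33.7 ± 1.5 to 15.3 ± 1.7 CPM and from 58.7 ± 2.8 to 24.7 ± 0.67 CPM. Col3a1 went from 2 counts to 126 over 3 libraries each, a ratio of 64 with a 95% interval of 17.3 to 534. Tnc (tenascin C) was lower, with 935, 1001 and 921 CPM at day 0 and 405, 363 and 372 at day 12. Tgm2, a crosslinking transglutaminase, had 178, 183 and 175 CPM at day 0 and 393, 390.0 and 385 at day 12, and Loxl2, a lysyl oxidase, fell from 405 ± 6.2 to 196 ± 4.7 CPM. Of 26 proteases and inhibitors 18 were higher and 4 lower. Adamts2, a procollagen peptidase, rose from 0.17 ± 0.071 to 8.44 ± 0.59 CPM and Mmp2, a gelatinase, from 10.9 ± 0.49 to 23.3 ± 0.78 CPM, while Adamts1 had 2060, 2022 and 2030 CPM at day 0 and 1162, 1062 and 1137 at day 12. Mmp3 had 0 counts at day 0 and 342 at day 12, at least 116-fold higher, and Mmp13 had 0 and 126, at least 42.6-fold. Contractile and mesenchymal genes were higher in 16 of 24 and lower in 5 (18 and 1 on log2(TPM + 1)). The filter was not met at day 0 for 2 of the 24, and of the other 22, 14 were higher and 5 lower. Acta2 (smooth muscle actin) had 0.872, 0.927 and 0.966 CPM at day 0 and 29.04, 30.1 and 24.9 at day 12. Myl9 had 3.68, 3.99 and 3.89 CPM at day 0 and 31.04, 32.7 and 30.6 at day 12. Snai1, a repressor of epithelial genes, rose from 1.05 ± 0.14 to 5.703 ± 0.38 CPM. Vcl (vinculin) stayed close to day 0 (95% interval of the log2 fold change −0.064 to 0.083). Markers of stroma gave a summed level of 113 to 115 CPM at day 0 and 122 to 124 at day 12, with 6 of 10 tested members higher and 1 lower. For 3 of the 10 the filter was not met at day 0, and of the other 7, 4 were higher and 1 lower. Pdgfrb rose from 0.0762 ± 0.027 to 1.52 ± 0.29 CPM, and Pdgfra had 0 and 14 counts. The part of other cells in the matrix changes was not tested.

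Of 19 listed chemokine genes 15 passed the low-count filter, and the 15 were higher, 14 of them by at least 2-fold. For 6 of the 15, among them Ccl9 and Cxcl15 with 1 and 0 counts at day 0, the filter was not met at day 0, and the other 9 were higher as well. Chemokines recruit leukocytes, and many are switched on by NF-kB. Ccl2, which draws monocytes, had 4.34, 4.83 and 4.53 CPM at day 0 and 87.4, 89.5 and 86.4 at day 12 (log2 fold change 4.27 ± 0.066 (SE), adjusted p = 1.77e-17), with 142 CPM at day 6. Cxcl5 had 2.903, 2.59 and 3.16 CPM at day 0 and 22.6, 23.8 and 24.1 at day 12 (log2 fold change 3.02 ± 0.063 (SE), adjusted p = 6.87e-20), with 83.3 CPM at day 6, and Cxcl1, like Cxcl5 a neutrophil chemokine, had 4.504, 3.64 and 4.63 CPM at day 0 and 19.7, 21.2 and 21.5 at day 12. Ccl5 had 0.8004, 0.352 and 0.779 CPM at day 0 and 10.7, 11.2 and 8.17 at day 12 and Ccl7 rose from 0.298 ± 0.019 to 8.85 ± 0.48 CPM. Each of these stayed above every day 0 library and lay below its day 6 mean. Among interleukins and related factors 10 of 14 were higher and 1 lower. The filter was not met at day 0 for 3 of the 14, and of the other 11, 8 were higher and 1 lower. Il33, an alarmin, rose from 2.15 ± 0.17 to 10.2 ± 0.27 CPM, and Il1rn, the natural interleukin 1 receptor antagonist, had 8.55, 9.04 and 7.53 CPM at day 0 and 32.6, 36.99 and 34.1 at day 12. Of 18 receptors 7 were higher (38.9%, against 34.6% of all genes) and 8 lower (44.4%, against 31.7%), with a median of −0.030 that became 0.0048 with upper-quartile scaling and 0.14 on log2(TPM + 1). Tnfrsf1b, a tumour necrosis factor receptor, had 10.6, 10.96 and 10.9 CPM at day 0 and 60.6, 59.6 and 56.3 at day 12, whereas Il1rl1, the receptor of Il33, fell from 47.2 ± 1.8 to 15.4 ± 1.6 CPM.

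NF-kB subunits and feedback inhibitors were higher in 15 of 21 and lower in 4 (18 and 1 on log2(TPM + 1)). NF-kB dimers are held in the cytoplasm by IkB proteins, and their own targets include the inhibitors that end the response. Tnfaip3 (A20), a ubiquitin-editing inhibitor, had 20.3, 21.05 and 20.4 CPM at day 0 and 100.2, 97.8 and 96.4 at day 12 (log2 fold change 2.25 ± 0.034 (SE), adjusted p = 3.02e-22), Nfkbie 6.76, 6.65 and 6.72 CPM at day 0 and 31.4, 31.1 and 29.7 at day 12 and Nfkbia 19.8, 18.6 and 18.2 CPM at day 0 and 47.8, 50.96 and 50.1 at day 12. Relb rose from 29.8 ± 1.3 to 45.4 ± 1.2 CPM, while Rel and Nfkbiz fell, from 31.2 ± 0.81 to 24.2 ± 0.48 CPM and from 38.98 ± 0.66 to 29.2 ± 1.1 CPM, Rel without a call on log2(TPM + 1). The promoters of Nfkbia and Tnfaip3 are shown because both genes were among the larger rises of the list and both hold the kB motif searched, GGG and TTTCC with any 2 bases between them, on either strand. RefSeq (GRCm38.p6) promoter bases before the annotated start are given 5′ to 3′ on the gene's strand, with the motif in capitals. By the GENCODE M21 position of Tnfaip3, chr10:19000910-19015657, its stretch lies inside the gene, so the 2 annotations place the start differently.
Nfkbia (chr12:55492648-55492827, minus strand): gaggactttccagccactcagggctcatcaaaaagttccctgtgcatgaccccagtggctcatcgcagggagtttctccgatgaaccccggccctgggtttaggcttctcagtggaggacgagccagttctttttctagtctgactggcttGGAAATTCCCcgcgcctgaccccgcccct
Tnfaip3 (chr10:19015411-19015530, minus strand): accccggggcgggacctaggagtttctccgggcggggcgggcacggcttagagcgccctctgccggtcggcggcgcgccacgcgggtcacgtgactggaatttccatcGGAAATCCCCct
Of 21 promoters of the list, from 17 genes with an entry, 33.3% held this motif in the 250 bases before the start, against 1.41% of all 32851 promoters. A match is a description of the letters, and says nothing of binding.

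Complement components were higher in 10 of 10 tested members of 15 listed, 1 of which did not meet the filter at day 0. These are secreted proteins that tag cells and start a proteolytic cascade. C3, the central component, had 13.8, 15.1 and 14.4 CPM at day 0 and 402, 375 and 360.2 at day 12 (log2 fold change 4.72 ± 0.057 (SE), adjusted p = 1.06e-18), below the day 6 mean of 673 CPM. Masp1 is described above. Of 5 tested regulators 3 were higher and 1 lower, and Clu (clusterin), which is also a marker of injured tubule, had 146, 146 and 139 CPM at day 0 and 733, 739.7 and 695 at day 12 (log2 fold change 2.33 ± 0.034 (SE), adjusted p = 1.82e-22), above its day 6 mean of 567 CPM. Genes of MHC class I presentation were higher in 17 of 21 and lower in 2 (19 and 0 on log2(TPM + 1)). B2m, the light chain, had 167, 172 and 175 CPM at day 0 and 314, 323 and 323 at day 12, and Psmb8, an immunoproteasome subunit, rose from 8.02 ± 0.23 to 15.3 ± 0.67 CPM. Type I interferon response genes were higher in 21 of 42 and lower in 9 (27 and 3 on log2(TPM + 1)), with a median of 0.29. Gbp2 and Ifit1 rose from 17.5 ± 2 to 48.8 ± 1.4 CPM and from 2.66 ± 0.85 to 7.89 ± 0.91 CPM, while Ifit3b and Cmpk2 fell from 17.8 ± 2.1 to 9.47 ± 0.91 CPM and from 5.43 ± 0.14 to 2.67 ± 0.043 CPM. Of 15 listed leukocyte markers, 5 were at 0 in every library and 5 were tested, 2 higher and 3 lower, with a median of −0.17 that was 0.062 on log2(TPM + 1). Ptprc (CD45), which marks all leukocytes, had 2.11, 1.76 and 2.48 CPM at day 0 and 0.336, 0.241 and 0.249 at day 12, and Csf1r fell from 25.5 ± 1.6 to 12.99 ± 0.33 CPM, while Cd14, which epithelium also makes, rose from 31.5 ± 1.9 to 69.3 ± 1.1 CPM. Their summed level was 70.4 to 78.4 CPM at day 0 and 97.4 to 98.7 at day 12.

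Genes marking tubule injury were higher in 21 of 31 and lower in 8 (23 and 5 on log2(TPM + 1)). Vcam1, an adhesion molecule of unrepaired tubule, had 10.1, 10.8 and 11.7 CPM at day 0 and 44.9, 49.2 and 50.8 at day 12 (log2 fold change 2.15 ± 0.057 (SE), adjusted p = 8.37e-17). Lcn2 (NGAL) rose from 0.4201 ± 0.041 to 4.42 ± 0.43 CPM. Havcr1 (KIM-1) was lower, with 7.598, 8.13 and 7.18 CPM at day 0 and 4.04, 3.42 and 4.16 at day 12, and its day 6 mean was 0.151 CPM. Akap12, a scaffold protein in this list, had 3111, 3139 and 3127 CPM at day 0 and 744, 715 and 713 at day 12 (log2 fold change −2.11 ± 0.031 (SE), adjusted p = 2.33e-22). Of 32 genes of the p53 list 22 were higher and 5 lower (28 and 1 on log2(TPM + 1)), with a median of 0.19. Fas, the death receptor, had 0.131, 0.272 and 0.187 CPM at day 0 and 5.51, 5.91 and 5.29 at day 12, and Eda2r, a receptor of the same family, rose from 3.6 ± 0.082 to 13.4 ± 0.54 CPM. Mdm2, which restrains p53, rose from 92.6 ± 2.3 to 116 ± 1.7 CPM, and Sesn1 fell from 63.2 ± 2 to 46.1 ± 1.4 CPM. The autotaxin axis held 7 tested genes, 6 higher and 1 lower (6 and 0 on log2(TPM + 1)). Beside Enpp2, Plpp3, a phosphatase that breaks down lysophosphatidic acid, rose from 19.3 ± 1.2 to 50.7 ± 1.3 CPM.

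Mitosis genes were lower in 35 of 35 tested members, by 0.50 to 1.49 on the log2 scale with TMM-scaled counts, and the 35 were lower on log2(TPM + 1) too, where the median of −0.91 was −0.62. Mki67, a proliferation marker, had 289, 315 and 324 CPM at day 0 and 120.2, 107 and 127 at day 12 (log2 fold change −1.39 ± 0.072 (SE), adjusted p = 2.18e-07). Cenpf, a kinetochore protein, had 185, 196 and 188 CPM at day 0 and 70.5, 60.2 and 72.5 at day 12, Ccnb1 (cyclin B1) 149.7, 149 and 145 CPM at day 0 and 63.8, 64.4 and 67.4 at day 12, and Top2a, the topoisomerase that untangles chromosomes, 452, 470.3 and 440.1 CPM at day 0 and 221, 225 and 233 at day 12. Ccnb1 and Top2a at day 12 lay near their day 6 means of 68.5 CPM and 232 CPM, while Mki67 and Cenpf lay below theirs of 174 CPM and 98.98 CPM. Promoters of 2 of these genes are shown because both hold 2 copies of the CHR motif TTTGAA, which DREAM complexes are known to use at genes of the late cell cycle. The motif is in capitals on either strand, in RefSeq bases (GRCm38.p6) before the annotated start.
Top2a (chr11:99024190-99024369, minus strand): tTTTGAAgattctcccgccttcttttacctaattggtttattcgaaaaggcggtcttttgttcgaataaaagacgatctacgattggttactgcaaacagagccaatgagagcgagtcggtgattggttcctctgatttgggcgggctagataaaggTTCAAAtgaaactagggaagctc
Mki67 (chr7:135716380-135716559, minus strand): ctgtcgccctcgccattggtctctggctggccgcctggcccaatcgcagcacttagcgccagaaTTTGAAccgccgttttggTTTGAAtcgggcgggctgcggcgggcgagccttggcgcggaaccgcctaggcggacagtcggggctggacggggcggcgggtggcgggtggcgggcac
The CHR motif was in 35.5% of 31 promoters of the list, from 29 genes with an entry, against 16.0% of all promoters, and the CCAAT box was in 74.2% against 33.8%. Both strands were searched, and overlaps between motifs were not removed.

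Genes of DNA replication mostly lay close to day 0. Of 40 tested, 25 were lower and 5 higher (6 and 19 on log2(TPM + 1)), 24 lay close to day 0, and 0 changed by 2-fold, with a median of −0.15 that was 0.098 on log2(TPM + 1). Mcm6 and Mcm2, helicase subunits that license origins, stayed close to day 0 (95% interval of the log2 fold change −0.059 to 0.062 for Mcm6 and 95% interval of the log2 fold change −0.09 to 0.028 for Mcm2). Rrm2, the ribonucleotide reductase subunit, had 81.95, 84.6 and 81.9 CPM at day 0 and 48.6, 49.7 and 51.7 at day 12, and Ccne2 (cyclin E2) fell from 36.9 ± 1.4 to 25.1 ± 1.7 CPM, while E2f1 rose from 40.7 ± 1.4 to 49.1 ± 0.49 CPM. No test of the difference between the mitosis and replication lists was made.

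**Figure D3:**
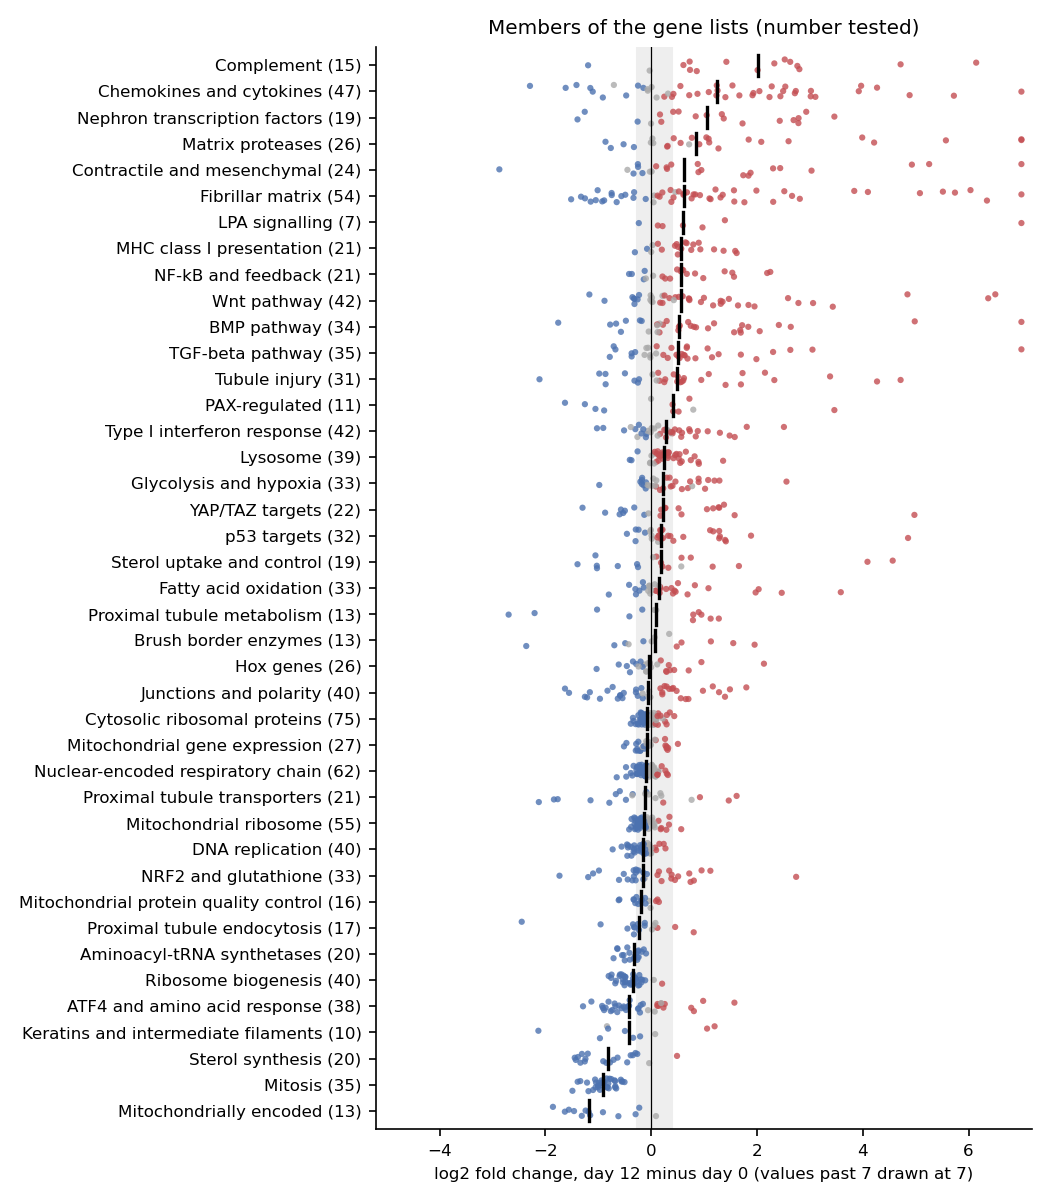
Log2 fold change of day 12 against day 0 (x axis) for each tested member of the gene lists (y axis, number tested in brackets), red where called higher, blue where called lower and grey where not called, with the list median as a black bar. The grey band spans the quartiles of all genes, and the medians of chemokines, complement and nephron transcription factors lie to its right, while those of sterol synthesis, mitosis and mitochondrially encoded genes lie to its left.

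Sterol synthesis genes were lower in 18 of 20 tested members and higher in 1 (15 and 2 on log2(TPM + 1)), 8 of them lower by at least 2-fold, with a median log2 fold change of −0.81. SREBP2, the product of Srebf2, switches on this pathway when cell sterol is low, while LXR switches on the sterol exporters ABCA1 and ABCG1. Hmgcs1, an early enzyme of the mevalonate pathway, had 224, 218 and 205 CPM at day 0 and 78.6, 79.8 and 79.5 at day 12 (log2 fold change −1.44 ± 0.033 (SE), adjusted p = 3.08e-19). Sqle, squalene epoxidase, had 306, 303 and 292 CPM at day 0 and 123, 115 and 125 at day 12, and Cyp51 had 215, 207 and 201 CPM at day 0 and 77.7, 73.98 and 80.2 at day 12. For these 3 genes the day 12 values lay below the day 6 means of 98.02 CPM, 162 CPM and 94.8 CPM. Ebp was higher, with 43.2, 40.4 and 41.6 CPM at day 0 and 59.01, 59.1 and 57.8 at day 12, and Dhcr7 stayed close to day 0 (95% interval of the log2 fold change −0.12 to 0.044). Regulators of uptake and efflux were divided, with 10 of 19 higher (52.6%, against 34.6% of all genes) and 7 lower (36.8%, against 31.7%). Srebf2 had 848, 831 and 852 CPM at day 0 and 439, 389 and 413 at day 12 (log2 fold change −1.03 ± 0.038 (SE), adjusted p = 2.43e-15), and Insig1, which retains SREBP in the endoplasmic reticulum, fell from 167 ± 4.7 to 82.1 ± 3 CPM. The exporter Abca1 had 7.78, 7.72 and 8.87 CPM at day 0 and 150.2, 113 and 152 at day 12 (log2 fold change 4.09 ± 0.15 (SE), adjusted p = 4.71e-07) and Abcg1 18.3, 16.5 and 20.3 CPM at day 0 and 44.5, 36.6 and 42.5 at day 12. The promoter of Hmgcs1 is shown because it alone in the list held the sterol element searched, TCACNCCAC on either strand, which is in capitals.
Hmgcs1 (chr13:119690171-119690350, plus strand): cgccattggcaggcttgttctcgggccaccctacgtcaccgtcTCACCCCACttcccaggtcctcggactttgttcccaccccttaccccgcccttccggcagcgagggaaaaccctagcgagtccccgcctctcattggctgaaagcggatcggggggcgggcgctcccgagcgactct
That is 1 of 18 promoters of the list (5.56%), from 15 genes with an entry, against 1.05% of all promoters. No match in the other promoters says only that these letters are not in the window.

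**Figure D4:**
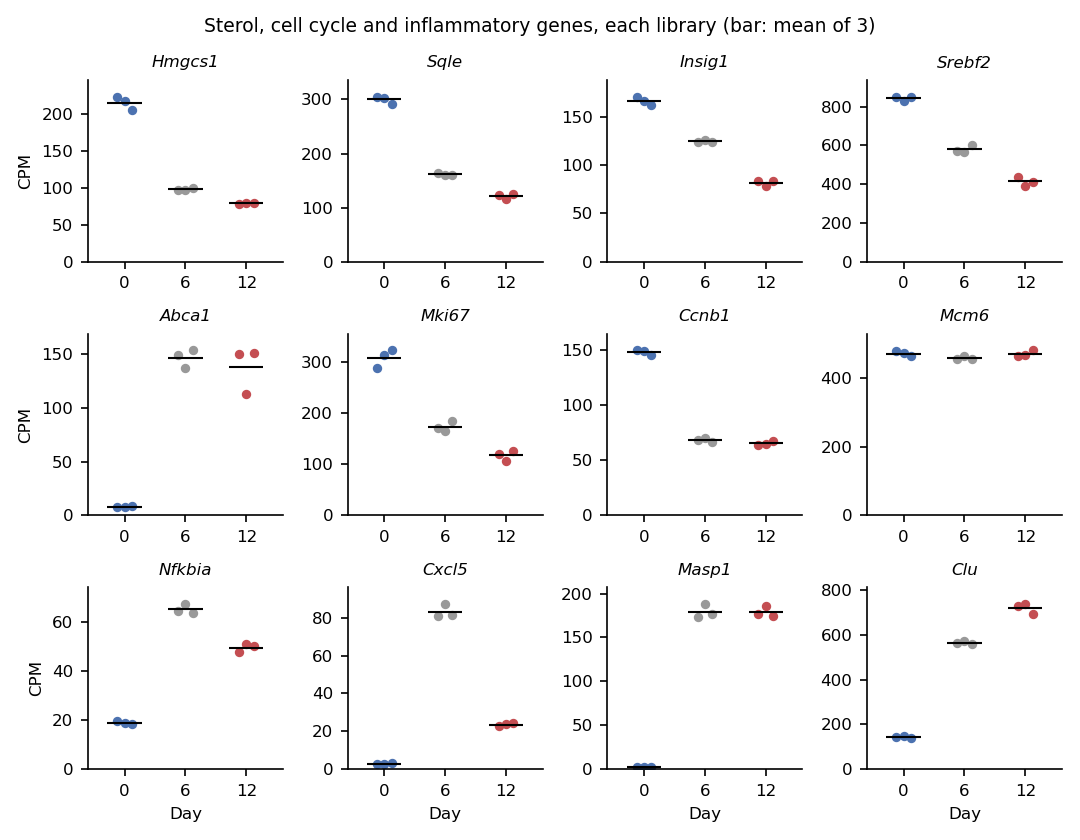
Level of 12 sterol, cell cycle and inflammatory genes in each library, in TMM-normalised CPM from 0 (y axis), at day 0, 6 and 12 (x axis, blue, grey and red), with 1 point per library and a bar at the mean of 3. Hmgcs1, Srebf2 and Mki67 were lowest at day 12, Cxcl5 and Nfkbia at day 12 lay between day 0 and day 6, and Mcm6 differed little between the days.

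Genes of protein synthesis were lower by small amounts. Aminoacyl-tRNA synthetases, which charge tRNAs, were lower in 20 of 20, with a median of −0.32, and 0 of them reached 2-fold. Only 10 of the 20 were lower and 1 was higher on log2(TPM + 1). Gars and Iars fell from 255 ± 3.8 to 156 ± 3.6 CPM and from 168 ± 1.6 to 108 ± 3.1 CPM. Ribosome biogenesis genes were lower in 38 of 40 and higher in 1, and on log2(TPM + 1) in 21 and 4. Ncl (nucleolin) had 1022, 1041 and 973 CPM at day 0 and 567, 594 and 578 at day 12, and Fbl (fibrillarin) fell from 111 ± 6 to 79.4 ± 1.2 CPM. Cytosolic ribosomal proteins were lower in 34 of 75 and higher in 10, but 64 lay close to day 0, and on log2(TPM + 1) 42 were higher and 3 lower. ATF4 responds to amino acid shortage and mitochondrial stress. Genes of the ATF4 and amino acid response list, Atf4 itself among them, were lower in 25 of 38 and higher in 10. Of its 17 stress regulators 9 were lower (52.9%, against 31.7% of all genes) and 6 higher (35.3%, against 34.6%). Their median of −0.21 was 0.041 on log2(TPM + 1). Slc7a5, a leucine transporter, had 116, 119 and 117 CPM at day 0 and 46.9, 48.8 and 48.2 at day 12 (log2 fold change −1.29 ± 0.032 (SE), adjusted p = 8.86e-19), and Asns, asparagine synthetase, 109, 111 and 105 CPM at day 0 and 46.7, 50.8 and 51.05 at day 12. Mthfd2 and Atf4 fell from 93 ± 2.9 to 53.2 ± 1.4 CPM and from 566 ± 25 to 395 ± 11 CPM, while Cebpb and Nupr1 rose from 27.4 ± 1 to 81.6 ± 4.8 CPM and from 24.5 ± 1.1 to 48.6 ± 0.88 CPM. The CARE motif TGATGNAA was in 25.6% of 39 promoters of this list, from 32 genes, against 3.45% of all.

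Mitochondrially encoded transcripts were lower in 12 of 13 tested protein genes (12 lower and 1 higher on log2(TPM + 1)), 8 of them by at least 2-fold, with a median log2 fold change of −1.18. The mitochondrial genome encodes core subunits of the respiratory chain. All annotated genes of that genome together, not only the 13 protein genes, took 6.79% ± 0.14 of all counts at day 0. Their share was 2.83% ± 0.99 at day 12 (SD, n = 3) and 7.09% ± 0.072 in the day 6 libraries. The 3 day 12 libraries had 2.43%, 3.96% and 2.10%, all below the lowest day 0 library at 6.66% (exact permutation test, two-sided p = 0.1, the smallest that 3 against 3 allows). mt-Co1, a complex IV subunit, had 20898, 21021 and 21091 CPM at day 0 and 4774, 8857 and 3766 at day 12 (log2 fold change −1.86 ± 0.31 (SE), adjusted p = 0.00178). mt-Cytb, of complex III, had 9535, 9726 and 10169 CPM at day 0 and 2593, 4932 and 1978 at day 12 (log2 fold change −1.63 ± 0.33 (SE), adjusted p = 0.00452). Replicate B of day 12 was the highest of its group for both genes, and without it the log2 fold changes were −2.30 and −2.10. mt-Co3 was not called, with 2494, 2315 and 2573 CPM at day 0 and 2385, 2797 and 2683 at day 12, so the transcripts of 1 genome did not change by the same factor. mt-Co3 shares annotated bases with its neighbour, and libraries were made from polyadenylated RNA, so a difference in tailing or capture cannot be told apart from one in transcript amount.

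**Figure D5:**
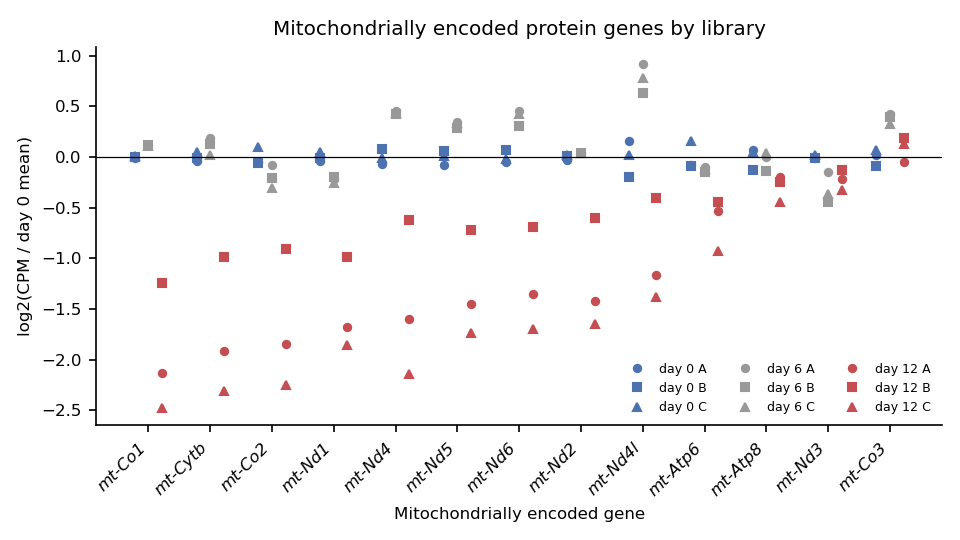
Level of the 13 mitochondrially encoded protein genes in each library (x axis), as log2 of CPM over the day 0 mean (y axis), in blue, grey and red for day 0, 6 and 12 and with a marker shape per replicate. Day 12 libraries lie below day 0 for 12 genes, replicate B least so for mt-Co1 and mt-Cytb, and mt-Co3 lies around 0.

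Nuclear genes of the same machinery changed little. Of 62 nuclear-encoded respiratory chain genes 33 were lower and 7 higher (4 and 29 on log2(TPM + 1)), 0 changed by 2-fold and 45 lay close to day 0, with a median of −0.088 that was 0.12 on log2(TPM + 1). Atp5b, of ATP synthase, had 1376, 1344 and 1298 CPM at day 0 and 953, 966 and 982 at day 12, and Cycs (cytochrome c) fell from 114 ± 1.2 to 72.4 ± 0.84 CPM. Ndufv1 stayed close to day 0 (95% interval of the log2 fold change −0.077 to 0.077). Mitochondrial ribosome genes were lower in 32 of 55 and higher in 7, with 35 close to day 0, and on log2(TPM + 1) 25 were higher and 3 lower. Polrmt, the mitochondrial RNA polymerase, stayed close to day 0 (95% interval of the log2 fold change −0.13 to 0.054). Of 16 genes of mitochondrial protein quality control 11 were lower and 3 higher (2 and 5 on log2(TPM + 1)), and 9 lay close to day 0. Their median of −0.19 was 0.054 on log2(TPM + 1). The chaperones Hspd1 and Hspa9 of this list fell from 574 ± 40 to 375 ± 6.2 CPM and from 773 ± 20 to 509.6 ± 8 CPM. Fatty acid oxidation genes were higher in 18 of 33 and lower in 7 (26 and 2 on log2(TPM + 1)). Fabp3, a fatty acid carrier, rose from 2.95 ± 0.21 to 11.6 ± 0.59 CPM, while Acaa2 and Hadh fell from 97.5 ± 4.6 to 56.05 ± 2.4 CPM and from 101 ± 1.7 to 75.8 ± 1.6 CPM. Ppargc1a, a regulator of mitochondrial biogenesis, stayed close to day 0 (95% interval of the log2 fold change −0.08 to 0.079).

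Redox, lysosomal and glycolytic genes also moved, mostly by small amounts. In the NRF2 and glutathione list 14 of 33 were higher and 18 lower (15 and 7 on log2(TPM + 1)), with a median of −0.15 that was 0.069 on log2(TPM + 1). Gpx3, a secreted peroxidase of proximal tubule, had 78.98, 81.2 and 82.5 CPM at day 0 and 542, 542 and 538 at day 12 (log2 fold change 2.74 ± 0.032 (SE), adjusted p = 5.27e-24), and Fth1, ferritin heavy chain, 613, 594 and 643 CPM at day 0 and 1329, 1369 and 1321 at day 12. Gstm1, a glutathione transferase, had 1316, 1261 and 1438 CPM at day 0 and 386, 413 and 409 at day 12 (log2 fold change −1.73 ± 0.043 (SE), adjusted p = 6.46e-17), and Gsr fell from 236 ± 8.1 to 104 ± 2.5 CPM. Lysosome genes were higher in 31 of 39 and lower in 3 (36 and 1 on log2(TPM + 1)), with a median of 0.24 and 1 change of 2-fold. Hexa and Ctsf rose from 109.8 ± 4.3 to 204 ± 3.5 CPM and from 16.2 ± 0.99 to 30.2 ± 2.2 CPM, and Asah1, acid ceramidase, fell from 319.9 ± 3.7 to 242 ± 7.4 CPM. Glycolysis and hypoxia genes were higher in 18 of 33 and lower in 8 (28 and 1 on log2(TPM + 1)). Egln3, an oxygen sensor, rose from 1.53 ± 0.15 to 9 ± 0.61 CPM and Vegfa from 83.5 ± 3.4 to 176 ± 8.4 CPM, while Pfkfb3 fell from 16.3 ± 1.1 to 8.297 ± 0.61 CPM and Hk1 stayed close to day 0 (95% interval of the log2 fold change −0.047 to 0.086). Of 26 tested Hox genes 9 (34.6%) were higher and 8 (30.8%) lower, shares near the 34.6% and 31.7% of all genes. On log2(TPM + 1) 14 were higher and 2 lower, and their median, −0.042 with counts, was 0.17. Hoxb13 and Hoxa10 rose from 13.8 ± 0.72 to 26.8 ± 1 CPM and from 23.8 ± 0.5 to 38.99 ± 0.66 CPM, and Hoxa3 and Hoxc4 fell from 6.37 ± 0.41 to 4.15 ± 0.22 CPM and from 8.69 ± 0.78 to 6.32 ± 0.63 CPM.

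Markers of other kidney cells were divided. Aqp2, a principal cell marker, had 1 and 6 counts at day 0 and day 12, Umod 1 and 9, and the endothelial marker Cdh5 0 and 1. Summed levels were 160 to 177 CPM at day 0 and 127 to 133 at day 12 for collecting duct (0 of 5 tested higher, 3 lower), with Car2 falling from 163 ± 8.7 to 126 ± 3 CPM, a call lost on log2(TPM + 1). They were 18.9 to 20.0 and 47.0 to 50.1 CPM for loop and distal tubule (1 of 3 tested higher, 0 lower), where Trpm6 rose from 16.6 ± 0.53 to 45.7 ± 1.9 CPM. They were 9.64 to 10.4 and 18.2 to 19.6 CPM for endothelium, where 4 of 6 tested members were higher and 1 lower (3 and 0 on log2(TPM + 1)), with a median of 1.26. Flt1 rose from 3.04 ± 0.28 to 9.61 ± 0.53 CPM, and Pecam1 (CD31) fell from 0.188 ± 0.025 to 0.0828 ± 0.045 CPM, a call lost on log2(TPM + 1). They were 1320 to 1340 and 1040 to 1050 CPM for podocyte and parietal cells (4 of 10 tested higher and 4 lower, 5 and 1 on log2(TPM + 1)). Each share was 40%, against 34.6% and 31.7% of all genes, and Cd2ap fell from 663 ± 7.8 to 437 ± 6.3 CPM. The part of such cells in the changes above was not tested.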

How the data were processed

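For 9 libraries of polyadenylated RNA the authors deposited raw gene counts, as whole numbers, and TPM. The submitters' processing notes name STAR 2.7.8a, RSEM 1.3.3, cutadapt 2.3, FastQC 0.11.8 and the build GRCm38. For what each did, the strand setting and the annotation release: not given in the sources used here. Counts from RSEM would be estimates, rounded before deposit. Of 55487 gene identifiers, 55227 were matched in GENCODE M21 for positions. The 4 transgene entries (0.00204% to 0.00284% of counts) entered neither library sizes nor tests.

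Genes were filtered with filterByExpr by group, scaled by TMM, then tested by robust quasi-likelihood in edgeR 4.0.16 (R 4.3.3) in 1 model of the 3 group means over 9 libraries (6 residual degrees of freedom), so that day 6 contributed to the spread. P-values were adjusted by Benjamini-Hochberg over the 16353 genes tested, and a gene is called higher or lower at an adjusted p under 0.05. The SE of a log2 fold change follows from its F statistic. CPM values carry TMM factors, with SD over 3 libraries. The fit was tested on simulated data for day 12 against day 0 over 16045 genes, where it recovered 178 of 200 changed genes, with 5 false calls. The simulation gave all genes the same spread and changed only those 200, equally up and down. It therefore cannot give the rate of false calls in the real data, where 66.3% of genes were called. Alternatives used DESeq2 1.42.0 and limma 3.58.1 on log2 of the TPM that the authors deposited plus 1 or 0.1. Shares of counts were compared by exact permutation tests (scipy 1.17.1).

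Members and the 47 gene lists were chosen with earlier results of these data known. Named genes are Pax8 and Pax2, the 12 largest changes in each direction and genes marked in the lists. Up to 2 of each direction per list and role, and up to 2 per list nearest to day 0, were also named. The 12 largest changes were taken among called genes with a mean of at least 5 CPM in the higher group and no overlap of libraries. Genes whose symbol is a gene model or clone name were left out of them. Some genes that this rule names are not reported here. Ccl9, Col3a1, Cxcl15, Mmp13, Mmp3 and Nkd1 were chosen after their values were seen. Of the 210 tested genes named, 8 share exon bases with a gene on the same strand (Col3a1, Ctnnb1, Hoxa3, Loxl2, Ncl, Tgfbr3, Top2a and mt-Co3) and 43 with one on the other strand, Pax8 among them, so their counts are less certain.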

Additional observations from a re-analysis of the deposited data

Results flagged for a closer look

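Reads assigned to transgenes lie outside the gene comparison and were present in every library, which is why they are listed. Cre, the recombinase of Rosa-CreERT2, had 1794, 1305 and 1307 counts in the day 0 libraries A, B and C, 1145, 1316 and 1021 at day 6, and 1643, 1511 and 1206 at day 12. Scaled to library size, its level was 20.4 ± 1.4 CPM at day 0 and 20.5 ± 0.66 at day 12 (SD, n = 3, exact permutation test, two-sided p = 1.0). tdTomato, a red fluorescent reporter that the labels do not mention, had 248, 139 and 197 counts at day 0, 273, 299 and 264 at day 6, and 427, 324 and 317 at day 12. Its level was 2.68 ± 0.40 CPM at day 0 and 5.04 ± 0.62 at day 12 (SD, n = 3, exact permutation test, two-sided p = 0.1, the smallest that 3 against 3 allows), and all day 12 libraries lay above all day 0 libraries. A count of 0 would allow up to 3 counts in a library. The entries for eGFP and mCherry had 0 counts in every library.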

How the results depend on the processing

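Genome-wide counts of calls kept within 1.5 times their value with RLE or upper-quartile scaling, without a filter, with the 6 libraries alone, without the mitochondrial genes and with DESeq2. Of 94 list counts, 1 moved further with RLE, 4 with upper-quartile scaling, 5 without a filter, 2 with DESeq2, 0 to 4 without 1 library and 44 on log2(TPM + 1). Leaving out 1 library in turn gave 5377 to 5485 genes higher, 4904 to 5019 lower, 1510 to 1582 at least 2-fold higher, 639 to 745 at least 2-fold lower and 4739 to 4850 close to day 0. A minimum of 1 CPM in 3 libraries gave 915 genes at least 2-fold higher and 348 lower, from fewer genes tested. On log2(TPM + 1), 1938 genes were lower, 774 at least 2-fold higher and 133 at least 2-fold lower. On log2(TPM + 0.1), 8507 were higher, 1955 lower and 282 at least 2-fold lower. Alternatives added after seeing the data were TPM rescaled without mitochondrial genes (3312 lower, 679 and 169 at least 2-fold higher and lower), TPM centred on the median gene (462 and 245) and all those for the count close to day 0. The cause was not tested, beyond the median shifts given above. The centred TPM scale turned Nkd1, a gene of few counts, to −0.088. Deviations from the group means correlated at r of −0.042, −0.033 and −0.083 between day 0 and day 12 libraries of the same letter. With means of only 3 libraries, such values cannot show whether the letters pair the cultures. A fit with the replicate block gave 5639 higher, 5136 lower, 1541 and 679 by 2-fold and 4984 close to day 0. With 1 count worth 0.0119 to 0.0172 CPM, changes of genes near 0 at day 0 are limited by depth.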
